A study of Mus musculus with 9 samples.

Results

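The genes described here encode the proteins of the cytosolic ribosome and the factors that load, move and release it along mRNA. They were chosen by symbol alone: Rpl or Rps followed by a number, Rplp followed by a number, or a name that starts with Eif or Eef, with the kinases named Rps6k and Eif2ak and the eIF2 gamma genes Eif2s3x and Eif2s3y left out. Of 16492 gene rows on the array, 83 met this rule. They comprise 7 proteins of the small ribosomal subunit, 12 of the large subunit, 8 paralogues, pseudogenes and other genes with a ribosomal name, 44 initiation factor genes and 12 elongation factor genes. Of the symbols listed for the small and the large subunit, 32 and 47 respectively, most were not matched to a row and were not analysed here.

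RNA came from RAW-264.7, a murine macrophage/monocyte line, in which the study asked which genes respond to the forkhead transcription factor FoxQ1. Stable clones were derived from single cells carrying the pEF6/V5-His TOPO vector, either empty (RAW-vector clones 4, 5, 6 and 7) or with the coding sequence of mouse FoxQ1 (RAW-FoxQ1 clones 7.1, 7.2, 7.3, 7.4 and 7.5). All 9 clones were grown in 6 µg/ml blasticidin S, an antibiotic that blocks protein synthesis at the ribosome and to which the vector gives resistance, and no clone received any further treatment. The vector drives its insert from the promoter of the human gene for translation elongation factor 1 alpha. Each clone was measured once, on 1 Affymetrix array, so that an error describes the spread between clones, and the sources used here do not say whether the clones of a group go back to 1 founder.

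A ribosome consists of a small subunit, which reads the mRNA, and a large subunit, which joins amino acids. Initiation factors bring the small subunit with the initiator tRNA to the capped end of an mRNA and to its start codon, and elongation factors deliver further tRNAs and move the ribosome forward. In mammals the mRNAs of ribosomal proteins and of several elongation factors begin with a pyrimidine tract, the TOP motif, through which the kinase mTOR controls their translation.

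Values are log2 expression values, quantile normalized by the authors, which removes any shift shared by all genes. Less RNA of a gene per cell and fewer cells that express the gene cannot be told apart. Every array had a median of 7.49. Foxq1 lay at 6.97 ± 0.033 (SD, n = 4) in RAW-vector clones and 0.39 higher in RAW-FoxQ1 clones (standard error 0.0403, adjusted p = 4.72e-05 from limma). Its signal was weak in both groups, at the 35.6 percentile in RAW-vector and the 47.5 percentile in RAW-FoxQ1 clones. Whether the probes of this row cover the transfected coding sequence was not tested. The paper reports that the FoxQ1 of the clones was detected as protein, by immunofluorescence for the V5 tag. The macrophage markers Lyz2, Csf1r, Cd14, Spi1 and Ptprc ranked above the 96 percentile of the array signal in both groups and were not called different, while of the 11 macrophage markers measured 5 were lower, among them Adgre1 with a log2 fold change of -2.38, and 1 was higher (Aif1, 0.58). The defining markers of T cells, B cells, fibroblasts and epithelium had median ranks between the 10.8 and 39.5 percentile. Cd3e and Lck ranked higher, at the 56.9 and 54 percentile in RAW-vector clones. Cd3e (-0.20), Lck (-0.17) and Cd79b (-0.43) were called lower, and none of these markers was called higher. The spiked poly-A controls, which are bacterial transcripts put into each sample ahead of labelling, had a mean of 8.41 to 8.70 on the RAW-vector arrays and of 7.92 to 8.38 on the RAW-FoxQ1 arrays, a difference of -0.50 (27 probe sets, two-sided exact permutation test, p = 0.0159). In the same exact test the 3 probe sets for 18S ribosomal RNA differed by -0.90 (p = 0.0714) and the 18 hybridization control sets by -0.18 (p = 0.0635). Pairs of arrays correlated across genes at 0.988 to 0.998 within RAW-vector clones, 0.981 to 0.997 within RAW-FoxQ1 clones and 0.934 to 0.968 between the groups.

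The genes of the translation machinery were called in both directions. Proteins of the ribosome itself were mostly lower in RAW-FoxQ1 clones, with 12 of 19 lower and 1 higher and a median log2 fold change of -0.25. Initiation factor genes were more often higher, with 18 of 44 higher and 8 lower and a median of 0.12, and in 15 of the 44 every RAW-FoxQ1 clone lay above every RAW-vector clone, as in 17.3% of all genes. Elongation factor genes, a class by name that includes enzymes acting on the factors, were divided, with 4 of 12 higher, 2 lower and a median of 0.01. Those higher were Eefsec and the methyltransferases of eEF1A Eef1akmt1, Eef1akmt2 and Eef1aknmt, and those lower were Eef2 and Eef1a2. Over the 83 genes 24 were higher and 23 lower, and their median of -0.01 was that of all genes tested, also -0.01. These counts are at an adjusted p under 0.05 from limma with Benjamini-Hochberg adjustment over all 16492 genes, of which 40.9% were called, 19.6% as higher and 21.4% as lower. Among the 3299 genes in the upper part of the signal, above the 80 percentile, where 62 of the 83 genes lay, 34.6% were higher and 30.8% lower. With the mean of the poly-A controls as a covariate 22 of the 47 calls remained, in the same direction, and 2735 genes were called in place of 6748. The poly-A means of the groups did not overlap, so this fit can hardly separate the covariate from the group. A call lost in it does not tell which of them the difference belongs to, and for some genes the call was lost although the change grew.

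**Figure D1:**
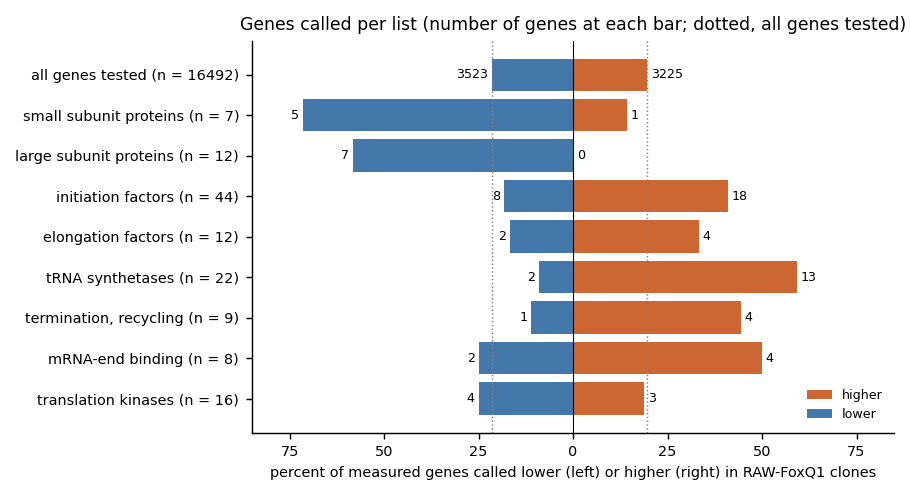
Share of the genes measured that were called lower (bars to the left) or higher (bars to the right) in RAW-FoxQ1 against RAW-vector clones at an adjusted p under 0.05 (limma), in percent, for all genes tested, for classes of the translation machinery and for related lists, with the number of genes at each bar. Dotted lines mark the shares of all genes, 21.4% lower and 19.6% higher. Among genes above the 80 percentile of signal these shares were 30.8% and 34.6%. The bars of both ribosomal subunits reach farthest to the left. To the right the line is passed by initiation factors (40.9%), elongation factors (33.3%), tRNA synthetases (59.1%), termination and recycling genes (44.4%) and mRNA-end genes (50%).

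Stretches of promoter are shown for genes of both directions because they share 1 motif. The E-box CACGTG, which reads the same on both strands and is bound by basic helix-loop-helix factors such as Myc and Usf, was searched in windows from 250 bases before to 50 after the start of each gene (RefSeq, GRCm38.p6), given for 63 of the 83 genes. It was present in 16 of these 63 genes (25.4%), against 10.5% of the 12806 genes of the array with a window. By direction it was present in 6 of 16 genes with lower values, 4 of 19 with higher values and 6 of 28 that were not called. The E-boxes of Eif3a, which was also higher, and of the genes that were not called are not printed. The capitals mark the E-box in each of the following stretches, the first 6 from genes that were lower and the last 3 from genes that were higher in RAW-FoxQ1 clones.
Rpl13a, chr7:45128925-45128960, minus strand: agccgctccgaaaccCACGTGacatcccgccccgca
Rpl14, chr9:120571334-120571369, plus strand: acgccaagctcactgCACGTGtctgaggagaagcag
Rpl23, chr11:97782422-97782457, minus strand: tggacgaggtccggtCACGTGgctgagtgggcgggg
Eef2, chr10:81176573-81176608, plus strand: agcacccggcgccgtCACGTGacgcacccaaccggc
Eif3f, chr7:108934332-108934367, plus strand: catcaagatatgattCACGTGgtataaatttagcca
Eif3k, chr7:28981912-28981947, minus strand: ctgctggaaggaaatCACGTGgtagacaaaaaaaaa
Eif4a1, chr11:69672592-69672627, minus strand: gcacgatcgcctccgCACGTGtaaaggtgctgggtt
Eif5a, chr11:69921440-69921475, minus strand: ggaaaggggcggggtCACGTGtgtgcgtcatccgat
Eef1aknmt, chr1:162548472-162548507, minus strand: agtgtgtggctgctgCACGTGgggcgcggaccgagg
The ETS-like motif CCGGAAG, on either strand, was in 34.9% of the genes described here and in 15.4% of the array's genes with a window. The pyrimidine run CTTTCC, also searched on both strands, was in 36.5% of the genes described here, in 8 of the 14 ribosomal protein genes with a window (57.1%) and in 30.2% of the array's genes. The run CTTTTC was in 25.4% of the genes described here, in 5 of these 14 (35.7%) and in 22.5% of the array's genes. The core of the forkhead motif, TGTTTA on either strand, was in 6 of the 63 genes (9.52%) and in 11.5% of the array's genes. Of the 16 genes that were lower 2 held it, Rpl22 and Eef2 (12.5%), and of the 19 with higher values none did. Of the 28 that were not called 4 held it (14.3%). None of the 5 motifs contains another, and a match is a run of letters and no measured binding.

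Among proteins of the large subunit 7 of 12 were lower by limma, and in all 7 every RAW-FoxQ1 clone lay below every RAW-vector clone, as was the case for 18.8% of all genes. None was higher, by limma, by the test of the study's methods or at an unadjusted p under 0.05, where Rpl31 was lower as well. The median over the 12 was -0.24. The 3 largest decreases were those of Rpl22, Rpl15 and Rpl23. Rpl22, which in mice is needed for alpha-beta T cell development and dispensable for translation in general, had log2 values of 11.85, 11.80, 11.77 and 11.79 in RAW-vector clones 4 to 7. In RAW-FoxQ1 clones 7.1 to 7.5 it had values of 10.99, 10.89, 10.29, 10.62 and 10.36. The RAW-FoxQ1 clones were thus all low and differed more among themselves (SD 0.312) than the RAW-vector clones (SD 0.0328). The log2 fold change of Rpl22 was -1.17 (standard error 0.139, adjusted p = 0.000121 from limma), a 2.25-fold lower value, with the smallest p that the exact permutation test of 9 clones can give (two-sided, p = 0.00794).

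Rpl15, a core protein of the large subunit, lay at 10.37, 10.07, 10.11 and 10.31 in RAW-vector clones 4 to 7 and at 9.48, 9.49, 8.90, 9.22 and 9.21 in RAW-FoxQ1 clones 7.1 to 7.5. Clone 7.3 was lowest, and the groups were apart by 0.58 at their nearest clones. The difference was -0.95 (standard error 0.122, adjusted p = 0.000184 from limma). Rpl23, which can also bind the p53 regulator Mdm2, lay at 10.30, 9.92, 9.66 and 10.42 in RAW-vector clones and at 9.30, 9.62, 9.52, 9.18 and 9.14 in RAW-FoxQ1 clones. Its RAW-vector clones were wide apart, with 4 and 7 high and 5 and 6 low, and clone 6 lay only 0.04 above the highest RAW-FoxQ1 clone. The difference in Rpl23 was -0.72 (standard error 0.163, adjusted p = 0.00546 from limma), and with the poly-A controls as a covariate it was -0.81 and no longer called (adjusted p = 0.145).

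The other large subunit proteins that fell did so by less. Rpl13a, which in human monocytes can leave the ribosome and repress inflammatory mRNAs, lay at 13.74 to 13.82 in RAW-vector clones and at 13.11 to 13.44 in RAW-FoxQ1 clones, a difference of -0.47 (standard error 0.0633, adjusted p = 0.000257 from limma). Rpl14 changed by -0.46 and Rpl8, which lies at the centre of the subunit where peptide bonds form, by -0.20. Both lost their call with the poly-A covariate, with values of -0.37 (adjusted p = 0.0622) and -0.22 (adjusted p = 0.129). Rpl21 changed by -0.24 from a weak signal, which ranked at the 37.5 percentile in RAW-vector and the 27.5 percentile in RAW-FoxQ1 clones.

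Of the 5 large subunit genes that were not called, Rpl31 had a difference of -0.25 (adjusted p = 0.0506 from limma) with groups that overlapped. Rpl4, Rpl26 and Rplp2, the last a stalk protein that recruits the GTPases of translation, lay between 14.46 and 14.79 in all clones, near the top of the array. Their differences were 0.03 with a 95% confidence interval of -0.039 to 0.094 for Rpl4, -0.03 with -0.122 to 0.062 for Rpl26 and -0.02 with -0.106 to 0.0591 for Rplp2. Because all arrays share the same sorted values, genes at the very top have little room to move on this scale. Rpl17 gave a weak signal, at the 36 and 31.4 percentile, and a difference of -0.11 (adjusted p = 0.379).

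**Figure D2:**
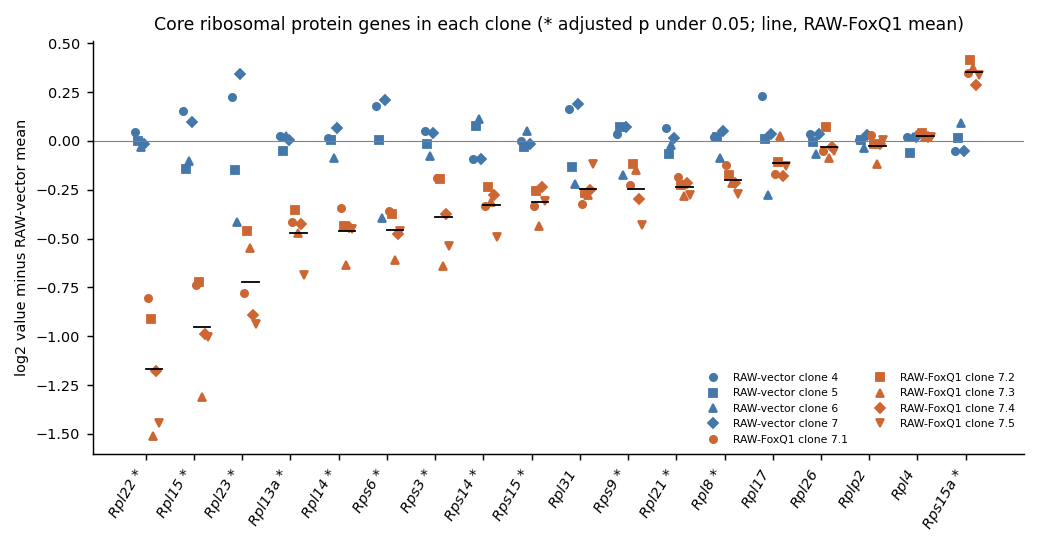
Log2 value of the 18 ribosomal protein genes named by the array's probe table in every clone minus the mean of the RAW-vector clones (blue, 4 RAW-vector clones; orange, 5 RAW-FoxQ1 clones; line, RAW-FoxQ1 mean; asterisk, adjusted p under 0.05). Rpl22, at -1.17, and Rpl15, at -0.95, lie lowest, Rpl4, Rpl26 and Rplp2 lie around 0, and Rps15a alone lies above the RAW-vector clones.

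Of 7 small subunit proteins 5 were lower and 1 was higher, with a median of -0.31. Rps6, the substrate of the S6 kinases, had values of 9.65, 9.48, 9.08 and 9.68 in RAW-vector clones 4 to 7 and of 9.11, 9.10, 8.86, 8.995 and 9.01 in RAW-FoxQ1 clones. RAW-vector clone 6 fell among the RAW-FoxQ1 clones. The difference in Rps6 was -0.46 (standard error 0.117, adjusted p = 0.011 from limma). Rps3, which lies where mRNA enters the ribosome and also takes part in NF-kappaB signalling, lay at 11.34 to 11.47 in RAW-vector clones and 10.78 to 11.23 in RAW-FoxQ1 clones, with no overlap and a difference of -0.39 (standard error 0.0947, adjusted p = 0.00855 from limma). Rps14 and Rps15 changed by -0.33 and -0.31 without overlap and Rps9 by -0.24 with overlap. Rps6, Rps3 and Rps9 lost their call with the poly-A covariate, with values of -0.26 (adjusted p = 0.524), -0.51 (0.115) and -0.37 (0.129). The call of Rps9 was also lost in the fits without RAW-vector clone 4, 5 or 7 and without RAW-FoxQ1 clone 7.4. Over all 9 fits that left out 1 clone, adjusted p reached 0.0719 and the change lay between -0.30 and -0.20.

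Rps15a, a small subunit protein by name and the 1 gene that rose, had a weak signal, at the 5.45 percentile in RAW-vector and the 19.5 percentile in RAW-FoxQ1 clones. It lay at 6.22, 6.29, 6.36 and 6.22 in RAW-vector clones and at 6.62, 6.69, 6.65, 6.56 and 6.61 in RAW-FoxQ1 clones, a difference of 0.35 (limma, standard error 0.0414, adjusted p = 0.000112, and 0.27 with adjusted p = 0.0513 with the poly-A covariate). At such ranks the probes are close to background, which limits how well the array measures them. Rack1 and Rpsa, proteins of the small subunit whose symbols lie outside the rule, had differences of -0.09 and -0.05 and were not called.

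Whether the count of lower ribosomal proteins rests on weak rows or on rows near the top of the array was examined by signal rank. Of the 16 ribosomal proteins above the 50 percentile of mean signal 11 were lower, with a median of -0.32. The 9 above the 98 percentile had 5 lower and a median of -0.20, and the 7 between these ranks had 6 lower and a median of -0.46. Among all 330 genes above the 98 percentile 26.7% were lower, with a median of 0.03. The mean over the 19 genes was 11.80, 11.71, 11.65 and 11.79 in RAW-vector clones 4 to 7 and 11.47, 11.51, 11.36, 11.41 and 11.35 in RAW-FoxQ1 clones 7.1 to 7.5. Clone 7.3 was the lowest RAW-FoxQ1 clone for 11 of the 19 genes and the highest for 1, whereas over all genes it was the lowest for 24.8%. With the poly-A covariate 6 of the 12 decreases remained called and the median was -0.28.

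**Figure D3:**
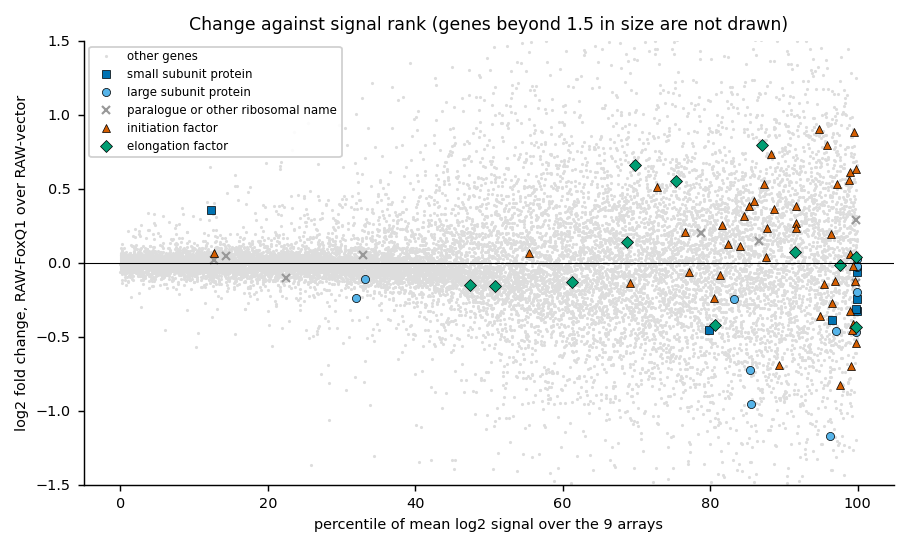
Log2 fold change (RAW-FoxQ1 over RAW-vector) against the percentile of mean log2 signal over the 9 arrays, with symbols for the classes of the 83 genes over all other genes in grey, of which those beyond 1.5 in size are not drawn. Most ribosomal proteins lie at high signal and below 0, Rps15a is far to the left, and weak genes on the left scatter little.

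Among the 8 genes with other ribosomal names 1 rose and 1 fell. Rps27l, a paralogue of Rps27 that p53 can induce in human cells, lay at 13.37, 13.41, 13.26 and 13.39 in RAW-vector clones and at 13.54, 13.69, 13.71, 13.62 and 13.67 in RAW-FoxQ1 clones. It was thus higher in every RAW-FoxQ1 clone, by 0.29 (standard error 0.0461, adjusted p = 0.000725 from limma). Rps24-ps3, annotated as a pseudogene of Rps24, changed by -0.14 (adjusted p = 0.0175, and -0.12 with adjusted p = 0.367 with the poly-A covariate). Its row ranked at the 99.8 percentile, and whether its probes also measure the mRNA of Rps24, which was not matched to a row, was not tested. Rpl3l, Rpl7l1, Rpl39l, Rps4l, Rps15a-ps6 and Rps19bp1, a protein that binds Rps19, were not called, with differences from -0.10 to 0.20.

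Factors that set the start codon were higher. Of 6 genes for eIF1, eIF1A and eIF5 and their relatives 5 rose and none fell, also at an unadjusted p under 0.05, with a median of 0.47. Eif5, which makes eIF2 hydrolyse GTP once the start codon is found, lay at 10.28, 10.28, 10.34 and 10.22 in RAW-vector clones and at 10.96, 11.25, 11.57, 11.08 and 11.08 in RAW-FoxQ1 clones. Its RAW-FoxQ1 clones were all high, with 7.3 the highest, and the difference was 0.91, which is 1.87-fold (limma, standard error 0.11, adjusted p = 0.000136). Eif1ad, which holds an eIF1A domain and in human cells takes part in maturation of the small subunit, rose by 0.74 (adjusted p = 0.000595). Eif1, Eif1a and Eif1ax, which keep the scanning ribosome open, rose by 0.56, 0.38 and 0.36.

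Eif1b, a paralogue of Eif1, lay at 11.36, 10.77, 10.57 and 11.47 in RAW-vector clones and at 10.57 to 10.74 in RAW-FoxQ1 clones, with overlap, and was not called (-0.36, adjusted p = 0.128 from limma). Its RAW-vector clones had the largest spread of all 83 genes (SD 0.441), with 4 and 7 high and 5 and 6 close to the RAW-FoxQ1 clones. Eif5, Eif1ad, Eif1 and Eif1a lost their calls with the poly-A covariate, at 0.67 (adjusted p = 0.0621), 0.53 (0.147), 0.62 (0.149) and 0.47 (0.0517), and Eif1ax kept it at 0.52.

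Of 4 genes for eIF2, which carries the initiator tRNA, and for related factors 1 was lower. The subunits Eif2s1 and Eif2s2 were not called, with differences of -0.07 and 0.13. Eif2a, a separate protein that can deliver the initiator tRNA without GTP, had values of 10.68, 10.21, 9.97 and 10.77 in RAW-vector clones and of 9.95, 9.79, 9.48, 9.61 and 9.74 in RAW-FoxQ1 clones. RAW-vector clone 6 lay only 0.02 above the nearest RAW-FoxQ1 clone. The difference in Eif2a was -0.69 (limma, standard error 0.166, adjusted p = 0.00753, and -0.44 with adjusted p = 0.432 with the poly-A covariate). Eif2d, another factor that binds initiator tRNA, had the widest spread among RAW-FoxQ1 clones (SD 0.456), with values of 9.91, 9.41, 8.88, 9.94 and 9.86 on both sides of the RAW-vector clones, which lay at 9.45 to 9.56.

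Of the 5 subunits of eIF2B, which recharges eIF2 with GTP and is blocked by phosphorylated eIF2, 3 rose and none fell, although Eif2b2 was lower at an unadjusted p of 0.0276. Eif2b4 (delta) rose by 0.38 and the catalytic subunit Eif2b5 (epsilon) by 0.27, both without overlap. Eif2b1 (alpha) rose by 0.31 with groups that overlapped (adjusted p = 0.0455). The call of Eif2b1 was lost without RAW-vector clone 4, 5 or 7 and without RAW-FoxQ1 clone 7.2 or 7.4. Over all 9 fits that left out 1 clone its change lay between 0.23 and 0.37, with adjusted p up to 0.122. Eif2b2 and Eif2b3 had differences of -0.15 and 0.23 and were not called, and Eif2b3 was among the 3 genes with the widest spread in RAW-FoxQ1 clones, from 9.75 to 10.39. No eIF2B gene was called with the poly-A covariate, at 0.37 for Eif2b4, 0.12 for Eif2b5 and 0.04 for Eif2b1.

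The eIF3 complex, the scaffold that binds the small subunit, had calls in both directions. Of 11 subunits measured 3 rose and 5 fell. Eif3b lay at 10.47, 10.83, 10.62 and 10.54 in RAW-vector clones and at 11.44, 11.40, 11.40, 11.41 and 11.41 in RAW-FoxQ1 clones. The RAW-FoxQ1 clones were nearly equal (SD 0.0156), and the difference was 0.80 (standard error 0.0649, adjusted p = 1.16e-05 from limma). Eif3a, the largest subunit, lay at 9.57, 9.60, 9.36 and 9.62 in RAW-vector clones and at 9.92, 10.30, 10.30, 10.03 and 9.77 in RAW-FoxQ1 clones, a rise of 0.53 (adjusted p = 0.00437, and 0.26 with adjusted p = 0.481 with the poly-A covariate). Eif3c rose by 0.19 with overlap (adjusted p = 0.025). Its call was lost without RAW-vector clone 5 or 6 and without RAW-FoxQ1 clone 7.1, 7.2 or 7.4, where adjusted p reached 0.0678, and with the poly-A covariate (0.17, adjusted p = 0.405).

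In the other direction Eif3h had values of 12.89, 12.91, 12.76 and 12.91 in RAW-vector clones and of 12.36, 12.18, 12.04, 12.23 and 12.04 in RAW-FoxQ1 clones. All RAW-FoxQ1 clones were low, and the difference was -0.70 (standard error 0.0704, adjusted p = 4.32e-05 from limma). Eif3f lay at 13.74, 13.67, 13.74 and 13.79 in RAW-vector clones and at 13.34, 13.21, 12.98, 13.25 and 13.18 in RAW-FoxQ1 clones. It fell by 0.54 (adjusted p = 0.000134), and both Eif3h and Eif3f carry an MPN domain. Eif3k changed by -0.45, Eif3e by -0.42 and Eif3d, which in human cells can bind the cap of some mRNAs, by -0.33. The calls of Eif3e and Eif3d were lost in 5 and 6 of the 9 fits that left out 1 clone, those without RAW-vector clone 4, 5 or 7 for both, without RAW-FoxQ1 clone 7.4 for both, without 7.5 for Eif3e, and without RAW-vector clone 6 and without RAW-FoxQ1 clone 7.3 for Eif3d. Over all 9 of the fits that left out 1 clone, their changes were -0.53 to -0.34 with adjusted p up to 0.0996 for Eif3e and -0.38 to -0.23 with adjusted p up to 0.0825 for Eif3d. Eif3e was at -0.64 (adjusted p = 0.156) and Eif3k at -0.36 (0.0519) with the poly-A covariate, while Eif3h, Eif3f and Eif3d kept their calls. Eif3g, Eif3i and Eif3l were not called, with differences of -0.02, -0.12 and -0.12.

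Arranged by evolution, the subunits that budding yeast also has (Eif3a, Eif3b, Eif3c, Eif3g and Eif3i) had 3 higher, none lower and a median of 0.19. Those that yeast lacks (Eif3d, Eif3e, Eif3f, Eif3h, Eif3k and Eif3l) had none higher, 5 lower and a median of -0.44. These empty counts also held at an unadjusted p under 0.05. The grouping was chosen after the values were seen and was given no test.

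**Figure D4:**
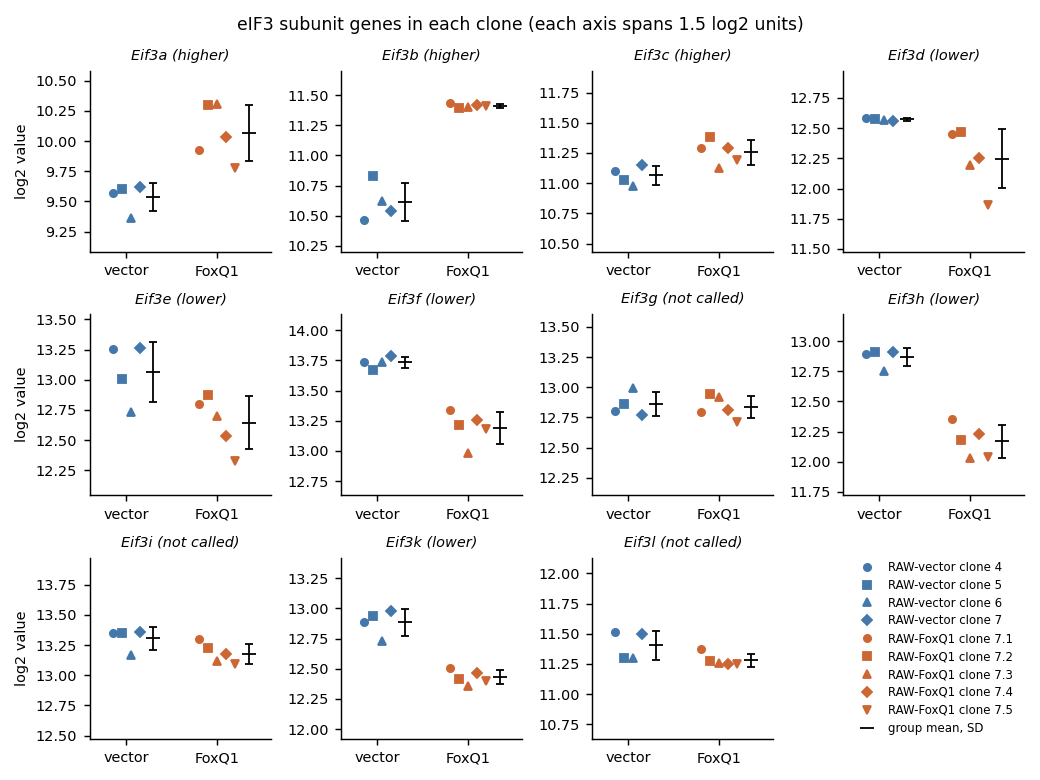
Log2 value of the 11 eIF3 subunit genes in every clone, 1 panel per gene, each with an axis that spans 1.5 log2 units (blue, 4 RAW-vector clones; orange, 5 RAW-FoxQ1 clones; bars, group mean and SD). The groups are apart upwards for Eif3a and Eif3b and downwards for Eif3d, Eif3f, Eif3h and Eif3k, and they overlap for the others.

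Among the eIF4 group, which handles the cap and unwinds the mRNA, the helicase and its cofactor differed in direction. Eif4a1, the RNA helicase, lay at 12.45, 12.68, 12.64 and 12.40 in RAW-vector clones and at 13.31, 13.45, 13.57, 13.39 and 13.41 in RAW-FoxQ1 clones. It was higher in every RAW-FoxQ1 clone, by 0.88, which is 1.84-fold (limma, standard error 0.0714, adjusted p = 1.12e-05). Eif4b, which stimulates this helicase, lay at 12.13, 11.99, 11.91 and 12.13 in RAW-vector clones and at 11.42, 11.46, 11.15, 11.17 and 10.87 in RAW-FoxQ1 clones. It was lower in every RAW-FoxQ1 clone, with a difference of -0.83 (standard error 0.115, adjusted p = 0.000318), whereas Eif4h, a cofactor related to Eif4b, was not called (0.06). Both Eif4a1 and Eif4b kept their calls with the poly-A covariate, at 0.79 and -1.16.

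Eif4a3, a helicase of the exon junction complex, rose by 0.61 (adjusted p = 0.00301, and 0.64 with adjusted p = 0.136 with the poly-A covariate). The cap-binding protein gene Eif4e and its paralogue Eif4e2 were not called, with differences of -0.14 (adjusted p = 0.0537) and -0.08, and Eif4e3, also a cap-binding paralogue, changed by -0.24 (adjusted p = 0.0443). The call of Eif4e3 was lost without each RAW-vector clone in turn and without RAW-FoxQ1 clone 7.2. It was also lost with array weights and with the poly-A covariate (-0.12, adjusted p = 0.707). Over all 9 fits that left out 1 clone the change of Eif4e3 lay between -0.27 and -0.17, with adjusted p up to 0.109. Of the scaffolds, Eif4g2, which lacks the site for eIF4E, rose by 0.42 without overlap (adjusted p = 9.52e-05), while Eif4g1 and Eif4g3 had differences of 0.21 and 0.24 and were not called. Eif4ebp1, Eif4ebp2 and Eif4enif1, which bind eIF4E and hold it back from the scaffold, were not called, with differences of -0.27, 0.07 and 0.04. Eif4ebp3, of the same family, was called at 0.25 with groups that overlapped (adjusted p = 0.0486). That call was lost in 8 of the 9 fits that left out 1 clone, all but the one without RAW-vector clone 6. Over all 9 fits the change of Eif4ebp3 lay between 0.19 and 0.33, with adjusted p up to 0.138.

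The late factors were higher. Eif5a, a factor that carries the amino acid hypusine and helps the ribosome through runs of proline, lay at 13.20, 13.31, 13.22 and 13.30 in RAW-vector clones and at 13.91, 13.87, 13.93, 13.84 and 13.90 in RAW-FoxQ1 clones. The clones of each group lay close together, and the difference of 0.63 had the lowest adjusted p of the 83 genes (standard error 0.0358, adjusted p = 1.47e-06 from limma). Its paralogue Eif5a2 was near background, at the 11.5 and 14.1 percentile, and was not called (0.06). Eif5b, which joins the subunits, rose by 0.51 and Eif6, which keeps free large subunits from joining, by 0.53 (0.47 with adjusted p = 0.173 with the poly-A covariate).

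**Figure D5:**
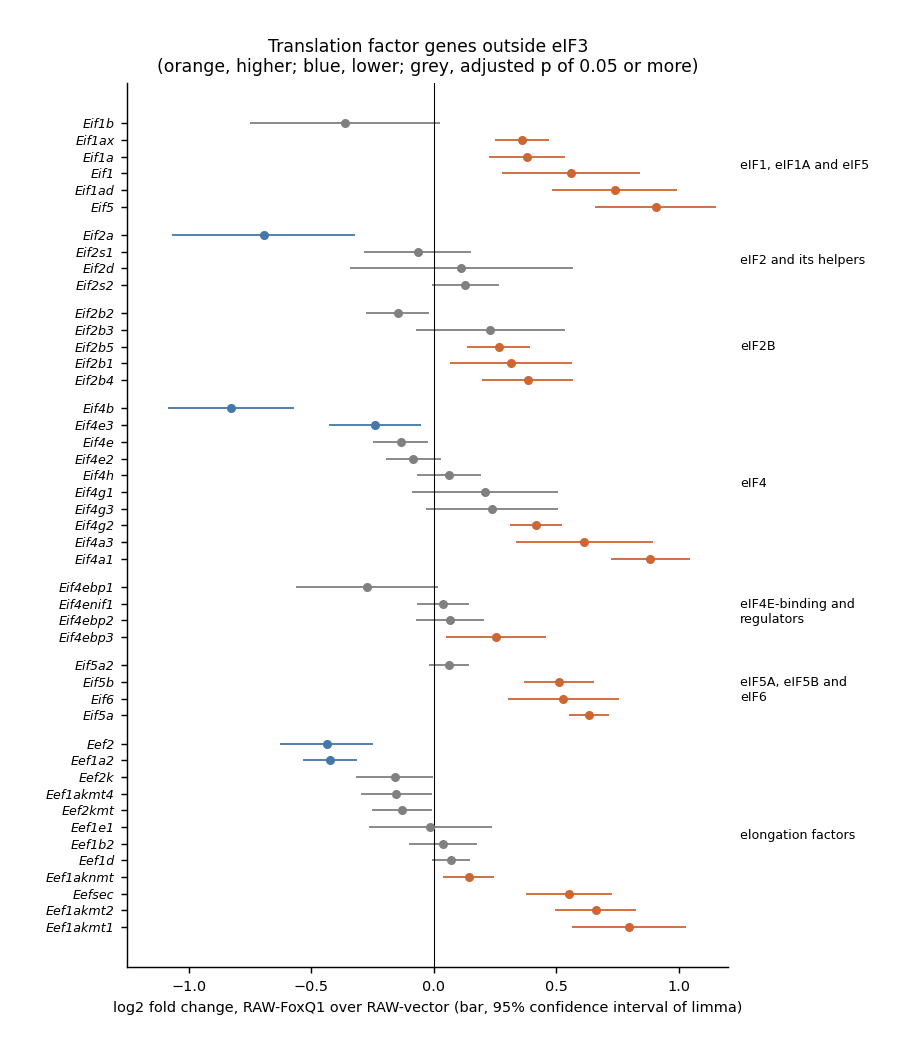
Log2 fold change (RAW-FoxQ1 over RAW-vector, points) with the 95% confidence interval of limma (lines) for initiation factor genes outside eIF3 and for elongation factor genes, grouped by role (orange, higher; blue, lower; grey, adjusted p of 0.05 or more). Eif5, Eif4a1 and Eef1akmt1 lie farthest to the right, at 0.91, 0.88 and 0.80, and Eif4b and Eif2a farthest to the left, at -0.83 and -0.69.

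Among elongation factor genes Eef2 and Eef1a2 fell and Eef1akmt1, Eef1akmt2, Eefsec and Eef1aknmt rose. Eef2, which moves the ribosome by 1 codon, lay at 13.98, 13.98, 13.93 and 14.0045 in RAW-vector clones and at 13.67, 13.56, 13.22, 13.66 and 13.56 in RAW-FoxQ1 clones. Clone 7.3 was far below the other RAW-FoxQ1 clones, all of which lay below the RAW-vector clones. The difference in Eef2 was -0.44 (limma, standard error 0.0847, adjusted p = 0.00236, and -0.33 with adjusted p = 0.241 with the poly-A covariate). Eef1a2, the isoform of eEF1A known from muscle and neurons, changed by -0.42 without overlap (adjusted p = 0.000109). Its paralogue Eef1a1 was not matched to a row, and whether the probes of Eef1a2 also measure Eef1a1 was not tested. Eef2k, the kinase that inhibits eEF2, was not called (-0.16, adjusted p = 0.0959).

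Eef1akmt1 and Eef1akmt2, which methylate lysines of eEF1A, were higher in every RAW-FoxQ1 clone. Eef1akmt1 lay at 9.22, 9.55, 9.55 and 9.16 in RAW-vector clones and at 10.04, 10.02, 10.15, 10.26 and 10.35 in RAW-FoxQ1 clones, a difference of 0.80 (standard error 0.103, adjusted p = 0.000201 from limma). Eef1akmt2 rose by 0.66 (adjusted p = 8.15e-05) and Eefsec, which brings selenocysteine to the ribosome, by 0.55 (adjusted p = 0.000342). Eef1aknmt, a methyltransferase that acts on eEF1A as well, rose by 0.14 (adjusted p = 0.0359). That call was lost without RAW-vector clone 4, 5 or 6 and without RAW-FoxQ1 clone 7.3, 7.4 or 7.5. Over all 9 fits that left out 1 clone the change of Eef1aknmt lay between 0.11 and 0.17, with adjusted p up to 0.094. Eef1akmt4, which methylates eEF1A too, was not called at -0.15 (adjusted p = 0.0861), although every RAW-FoxQ1 clone lay below every RAW-vector clone (two-sided exact permutation test, p = 0.00794). The nearest clones of the groups were only 0.00073 apart, and RAW-vector clone 6, at 7.69, lay well above the other RAW-vector clones. Eef2kmt, the methyltransferase of eEF2, was not called at -0.13. Eef1b2 and Eef1d, exchange factors for eEF1A, had differences of 0.04 and 0.07, and Eef1e1, a part of the aminoacyl-tRNA synthetase complex, had a difference of -0.01.

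Over all genes the arrays of RAW-vector clones 4 and 7 (r = 0.998) and of clones 5 and 6 (r = 0.997) resembled each other, and the 83 genes were like the rest in this: clones 4 and 7 both lay above or both below clones 5 and 6 in 56.6% of them, against 54.1% of all genes. Apart from Eif1b, the widest spread among RAW-vector clones was that of Eif2a (SD 0.381) and Rpl23 (SD 0.348), in both of which clones 4 and 7 were high. Among RAW-FoxQ1 clones it was that of Eif2d, Rpl22 and Eif2b3, in each of which clone 7.3 lay at 1 end of the range. Over all genes clone 7.3 was the lowest RAW-FoxQ1 clone for 24.8% and the highest for 29.7%.

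Genes that serve the same process but lie outside the rule were taken from lists, whose counts stand against 19.6% higher and 21.4% lower over all genes. Of 22 genes for cytosolic aminoacyl-tRNA synthetases and their scaffold, which charge tRNAs, 13 rose and 2 fell, with a median of 0.52. Tars (threonine), Lars (leucine) and Iars (isoleucine) rose by 1.10, 1.07 and 1.01, while Sars (serine) changed by -0.51 and the scaffold protein Aimp1 by -0.50. The call of Aimp1 was lost without RAW-vector clone 4 or 7 (adjusted p up to 0.0646). Under the poly-A covariate Tars (adjusted p = 0.0508), Lars (0.249), Iars (0.0621) and Aimp1 lost their calls and Sars kept it. Of 9 genes for termination and recycling 4 rose and 1 fell, with a median of 0.05. The release factors Gspt1 and Etf1 rose by 0.52 and 0.45 and the recycling factor Denr by 0.46, whereas Pelo, which rescues stalled ribosomes, changed by -0.39. Of these Denr alone kept its call with the poly-A covariate.

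Of 8 genes that act at the ends of mRNA 4 rose and 2 fell, with a median of 0.14. Ncbp2 and Ncbp1, the nuclear cap-binding pair, rose by 1.07 and 0.60, and Larp1, which binds TOP mRNAs, by 0.19, a call that was lost without RAW-vector clone 4 or 7 (adjusted p up to 0.0647). The 2 that fell encode inhibitors, Pdcd4 of the helicase eIF4A (-0.997, adjusted p = 0.000342) and Paip2 of the poly(A)-binding protein (-0.61, adjusted p = 0.00196). Of 16 kinases and regulators of translation 3 rose (18.8%) and 4 fell (25%), with a median of 0.01. These shares were near those over all genes, 19.6% higher and 21.4% lower. Rheb, which activates mTOR, rose by 0.35, Rps6kb2 by 0.33 and the heme-regulated eIF2 kinase Eif2ak1 by 0.19. Mknk2, which phosphorylates eIF4E, changed by -0.68, Akt1s1, an inhibitor of mTOR, by -0.30 and the eIF2 kinase of the endoplasmic reticulum, Eif2ak3, by -0.19. Mtor, Rptor, Tsc1 and Tsc2 were not called. Of these mRNA end and kinase genes Ncbp1, Larp1, Paip2, Rps6kb2, Eif2ak1, Mknk2, Akt1s1 and Eif2ak3 lost their calls with the poly-A covariate.

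Of 11 targets of the integrated stress response, the program that follows phosphorylation of eIF2, 4 rose (36.4%) and 2 fell (18.2%), with a median of 0.07. Over all genes 19.6% were higher and 21.4% lower. Chac1, Asns and Atf4 rose by 0.94, 0.90 and 0.70, and all 3 lost their calls with the poly-A covariate (adjusted p = 0.817, 0.464 and 0.127). Ddit4, which restrains mTOR, changed by -2.47 and Nupr1 by -0.83, and both kept their calls. Ddit3 and Atf3, also transcription factors of this response, were not called, at 0.34 and -0.67. Gas5, a non-coding host gene with a TOP start, rose by 0.54 (adjusted p = 0.00256, and 0.132 with the poly-A covariate), and Vim, a TOP mRNA as well, was not called (-0.26, adjusted p = 0.0872).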

How the data were processed

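Total RNA of 9 clones was hybridized to Affymetrix mouse genome arrays, 1 per clone. Per the study's methods, the authors annotated the probes with Custom CDF version 12, based on Entrez genes, and applied quantile normalization. RMA stands in the submitters' processing notes without a version. The values as deposited are on the log2 scale, with 1 row per gene definition, and scanner files were not used here. Precision is limited by the number of arrays.

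From the deposited values 64 control rows of 16556 were set apart. Of 16492 gene rows 15270 were named by the array's probe table and 988 more by the Entrez ID of the row in the RefSeq gene table, which gave 6 of the 83 genes (among them Eif1, Eif2s1, Eif3g, Eif4g1 and Rps24-ps3), and 234 stayed unnamed. The groups were compared with lmFit and eBayes in limma 3.58.1 (R 4.3.3) on the group alone, without a filter. P-values were Benjamini-Hochberg adjusted over all gene rows and genes were called under 0.05. Standard errors are moderated. For single values a two-sided exact permutation test enumerated the 126 ways to split the clones. The fit was tested on simulated data. No p-value was computed over a list. The values of 1 gene that is counted in its class are not reported here. Promoter windows and their coordinates are RefSeq's, and the array's build was not used.

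The genes and lists were chosen with earlier results of these data known. The genes named with values are Foxq1, up to 6 called genes per direction among ribosomal proteins, initiation and elongation factors, up to 3 per direction in each subgroup and each related list, paralogues beside their main gene, and the 3 genes with the widest spread in each group. Others, such as genes that were not called, were named after their values were seen. Other settings tried were the one-way ANOVA of the methods, trend and robust settings, array weights, centring on bright genes, a quantile step without the 83 genes, a 40 percentile filter, a minimum log2 fold change of 0.5, averaging where a gene had several rows, the poly-A controls as a covariate and leaving out each clone.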

Additional observations from a re-analysis of the deposited data

Results flagged for a closer look

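Of 166 sets of values, 83 genes in each of the 2 groups, 8 held 1 clone far from the others. This share is near the 1 in 20 that chance gives. Eef2, the translocase, was at 13.2 in RAW-FoxQ1 clone 7.3 and at 13.6 to 13.7 in the others. Rps15a-ps6, a pseudogene near background, was at 6.42 in the same clone and at 6.55 to 6.58 in the others. In RAW-FoxQ1 clone 7.1 Eif3l was at 11.4, against 11.2 to 11.3, and Rpl3l, a weak row, was at 6.89, against 6.94 to 6.96. RAW-vector clone 6 was low for the eIF3 subunits Eif3h (12.8, others 12.9) and Eif3i (13.2, others 13.3 to 13.4) and for the small subunit protein Rps9 (13.9, others 14.1). RAW-vector clone 5 was low for the large subunit protein Rpl4, at 14.7 against 14.8, which is near the top of the array.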

How the results depend on the processing

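Of the 47 genes called among the 83, the number still called in the same direction was 41 under the methods' one-way ANOVA, 42 with trend and robust settings, 46 with array weights, 45 with arrays centred on bright genes, 46 with the 83 genes left out of the quantile step, 45 with genes below the 40 percentile dropped, 47 with rows averaged, 20 at a log2 fold change of at least 0.5, 22 with the poly-A covariate and 39 to 45 with 1 clone left out. Those called in every one of these fits were Rpl22, Rpl15, Eif3b, Eif3f, Eif3h, Eif4a1, Eif4b, Eif5a, Eif5b, Eef1akmt1, Eef1akmt2 and Eefsec. Initiation factor genes with lower values numbered 8, but 5 under the one-way ANOVA and 5 to 10 with 1 clone left out (5 without RAW-vector clone 4, 5 or 7). The filter dropped Rps15a, Rpl17 and Rpl21, which left 0 small subunit genes higher and a ribosomal protein median of -0.32 in place of -0.25. Large subunit genes that were lower still numbered 7, without Rpl21 and with Rpl31. At a log2 fold change of at least 0.5, 2602 of all genes were called in place of 6748, with 0 small subunit genes higher and 0 lower, 3 large subunit genes lower, 10 initiation factor genes higher and 4 lower, and 0 elongation factor genes lower, since that setting also asks for size. With the poly-A covariate, 2735 of all genes were called, with 0 small subunit genes higher and 2 lower, 4 large subunit genes lower, 6 initiation factor genes higher and 4 lower, and 1 elongation factor gene lower; the cause was not tested. With array weights, the elongation factor median was -0.05, and it lay between -0.05 and 0.05 with 1 clone left out.

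Values that changed sign belonged to genes that were not called. Eef1b2 was at -0.0060 with array weights, at -0.0056 with the 83 genes left out of the quantile step and at -0.023 to 0.076 with 1 clone left out (lowest without RAW-vector clone 6), and Rpl26 was at 0.015 with that quantile step. With the poly-A covariate, Eef1e1 was at 0.016, Eif2b3 at -0.063, Eif4g3 at -0.11, Rpl7l1 at -0.0089, Rplp2 at 0.043 and Rps4l at 0.20. With 1 clone left out, Eef1e1 lay at -0.10 to 0.043 (-0.069 without RAW-vector clone 6) (above 0 without RAW-vector clone 5 at 0.0096 and 7 at 0.022 and without RAW-FoxQ1 clone 7.1 at 0.043 and 7.4 at 0.028), Eif3g at -0.052 to 0.024 (0.0081 without RAW-FoxQ1 clone 7.5), Rps15a-ps6 at -0.0031 to 0.096, Rplp2 at up to 2.6e-05 and Rpl39l at down to -0.0042. No paired analysis was possible because the clone numbers of the groups do not match.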
